A study of Mus musculus with 18 samples.

Results

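The kinases and ubiquitin ligases that act on circadian clock proteins were represented by 6 genes: the casein kinase 1 genes Csnk1d, Csnk1e and Csnk1a1, the glycogen synthase kinase 3 gene Gsk3b, and the F-box genes Btrc and Fbxw11. They were chosen by name. A gene was kept if at least 1 probe set of the platform annotation carried its symbol and no other. All 6 genes met this rule, each with 1 probe set, out of 19938 genes measured in this way. After quantile normalization, none of the 6 passed a test of change between the 6 times after dexamethasone, and each one's mean level stayed within a span of 0.029 to 0.13 log2. On the same arrays, 8 of 9 measured genes for the clock proteins they act on passed it, as did 19.8% of all genes. Genes that passed, at an adjusted p under 0.05, are said to be called.

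The cells were wild type mouse embryonic fibroblasts (MEFs), the connective tissue cells that grow out of minced embryos, here taken at embryonic day 13 and described as coming from 2 C57BL/6 mice. They were treated for 2 h with 100 nM dexamethasone, a synthetic glucocorticoid that sets the clocks of cultured cells to a common phase, and RNA was taken at 22, 26, 30, 34, 40 and 46 h. Each time had 3 samples and each sample 1 Affymetrix array, which gave 18 arrays. All groups shared the genotype and the treatment, and an untreated group was not analysed here. The labels call the 3 samples biological replicates without saying whether they were separate cultures, so the p-values measure only the spread between these samples, which may be technical. The growth medium is described in ways that differ.

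In the clock, the transcription factors CLOCK and BMAL1 (gene symbol Arntl) drive the Per and Cry genes, whose proteins return to the nucleus and repress that activity. Casein kinases 1 delta and 1 epsilon phosphorylate PER proteins, which creates a docking site for the F-box protein beta-TrCP. Beta-TrCP is the substrate-binding subunit of an SCF ubiquitin ligase, a complex of SKP1, a cullin and a RING protein, and it marks PER for destruction by the proteasome. Changes in the kinases or in their sites on PER2 alter the period of the clock and the timing of sleep, which makes this step a main setting of clock speed. The arrays measured transcripts and not kinase or ligase activity.

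Promoter windows from RefSeq (assembly GRCm38.p6), running from 250 bases before to 50 bases after a transcript start, were held for 3 of the 6 genes. They are printed because clock factors act through short letters near such starts: CLOCK and BMAL1 bind the E-box CACGTG and the PAR bZIP factors bind the D-box TTANGTAA. The windows were searched on both strands for these 2 motifs, for the CCAAT box (CCAAT) and for the GC box (GGGCGG), and capitals mark every match, which may overlap another. Csnk1e had 4 annotated windows, of which the one furthest upstream is shown, chr15:79442094-79442393 on the minus strand. The Fbxw11 window is chr11:32642305-32642604 on the plus strand and the Gsk3b window chr16:38088751-38089050 on the plus strand.
Csnk1e: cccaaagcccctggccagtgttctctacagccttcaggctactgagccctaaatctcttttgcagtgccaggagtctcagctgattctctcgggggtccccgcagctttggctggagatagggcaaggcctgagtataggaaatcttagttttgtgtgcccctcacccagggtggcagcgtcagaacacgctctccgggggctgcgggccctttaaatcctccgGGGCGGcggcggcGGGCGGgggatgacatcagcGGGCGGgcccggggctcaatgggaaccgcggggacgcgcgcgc
Fbxw11: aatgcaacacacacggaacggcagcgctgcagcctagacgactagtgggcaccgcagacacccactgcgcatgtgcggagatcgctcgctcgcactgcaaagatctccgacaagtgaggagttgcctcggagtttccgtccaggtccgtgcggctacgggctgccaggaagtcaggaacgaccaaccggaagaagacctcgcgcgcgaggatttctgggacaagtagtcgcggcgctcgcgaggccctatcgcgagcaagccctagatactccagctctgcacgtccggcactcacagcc
Gsk3b: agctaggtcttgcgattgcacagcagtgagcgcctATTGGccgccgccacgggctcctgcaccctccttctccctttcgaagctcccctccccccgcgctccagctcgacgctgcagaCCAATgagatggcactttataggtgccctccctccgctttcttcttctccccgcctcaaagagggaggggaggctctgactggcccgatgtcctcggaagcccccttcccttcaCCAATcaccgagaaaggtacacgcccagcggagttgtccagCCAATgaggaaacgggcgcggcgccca

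The Gsk3b window held 4 CCAAT boxes, starting at its bases 36, 119, 233 and 274, the first of them on the opposite strand. The Csnk1e window shown held 3 GC boxes, and the 4 Csnk1e windows held between 3 and 6. The Fbxw11 window held none of the 4 motifs. Neither the E-box nor the D-box letters were found in any of these 6 windows. Over all 32817 windows of the same length, 7.15% held the E-box, 2.32% the D-box, 37.4% the CCAAT box and 35.6% the GC box. The GC content was 64.3% in the Csnk1e window shown, 62.3% in Fbxw11 and 63.0% in Gsk3b, and the median over all windows was 52.7%. The other Csnk1e windows had more, from 74.0% to 80.7%. Among 8 genes for clock proteins with a window, the E-box letters stood in Cry1 and Per1 and the D-box letters in Per3. A match is a description of the letters and says nothing of binding.

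Levels are given as log2(intensity + 16) after quantile normalization, a scale on which 1 unit is a doubling for bright probe sets. In RNA from a whole culture, fewer cells with a transcript and less transcript per cell cannot be told apart. Levels of different genes come from different probes and are not compared with each other. The 10 fibroblast markers had levels from 7.31 (Thy1) to 13.47, and those of macrophages, endothelium, epithelium, skeletal muscle and nerve tissue from 6.00 to 9.49. Since these levels come from different probes, they give no test of the cell type. Between 22 h and 46 h, limma called 21.2% of all genes, 11.5% higher and 9.73% lower. Of the 10 fibroblast markers, 6 were called, all higher. Of 5 epithelial markers Krt19 fell by 0.93 and Krt8 by 0.28, of 5 skeletal muscle markers Myod1 rose by 0.16, and the macrophage, endothelial and nerve lists had 0 called by limma, with Sox2 and Sox10 of the nerve list at an unadjusted p under 0.05. In the same contrast 11 of 11 measured genes of the G2/M phase and mitosis fell, with a median change of -1.48 log2. Their part in the results below was not tested.

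**Figure D1:**
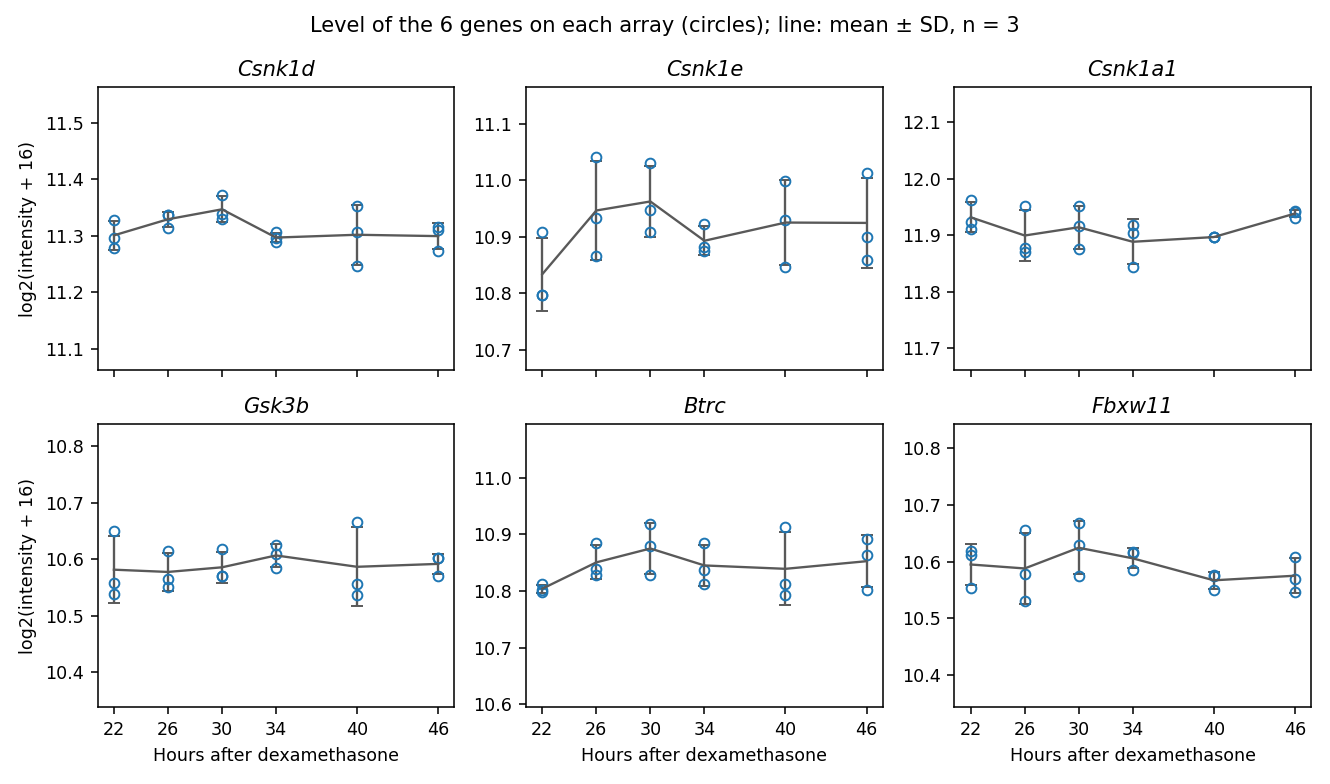
Level of each of the 6 genes (vertical axis, log2(intensity + 16); each panel spans the same number of units) against hours after dexamethasone (horizontal axis). Circles are single arrays and the line joins the means with their SD (n = 3); 78 of the 90 combinations of a gene and a pair of times overlap, and the spread is widest for Csnk1e, from 10.80 to 11.04.

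Csnk1d, which encodes casein kinase 1 delta, kept a nearly level course. Its 3 arrays at 22 h read 11.28, 11.33 and 11.30, those at 26 h 11.34, 11.31 and 11.34 and those at 30 h 11.37, 11.34 and 11.33. At 34 h they read 11.30, 11.31 and 11.29, then 11.35, 11.25 and 11.31 at 40 h and lastly 11.31, 11.31 and 11.27 at 46 h. The arrays of 30 h lay above all those of 22, 34 and 46 h, those of 26 h lay above those of 34 h, and every other pair of times overlapped. The mean was highest at 30 h, 11.35 ± 0.023 (SD, n = 3), followed by 26, 40, 22, 46 and 34 h, with 11.30 ± 0.0085 at 34 h. No neighbours in this order differed beyond their spread. The change from 22 h to 46 h was -0.0013 ± 0.042 log2 (SE), with a 95% interval from a fold of 0.940 to one of 1.062. With arrays shifted to a common median the change was -0.097 ± 0.040 (SE, limma adjusted p = 0.0830).

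Csnk1e encodes casein kinase 1 epsilon, the kinase altered in the short-period tau hamster, and had the widest spread of the 6. Its arrays at 22 h read 10.80, 10.91 and 10.80, those at 26 h 10.93, 10.87 and 11.04 and those at 30 h 10.95, 11.03 and 10.91. At 34 h they read 10.87, 10.92 and 10.88, then 11.00, 10.85 and 10.93 at 40 h and lastly 10.90, 11.01 and 10.86 at 46 h. The lowest arrays were 2 of the 3 at 22 h, and 22 h and 30 h were the only times whose arrays did not overlap. The order of the means ran 30, 26, 40, 46, 34 and 22 h, from 10.96 ± 0.063 (SD, n = 3) down to 10.83 ± 0.064, and all neighbours overlapped. From 22 h to 30 h the difference was 0.13 ± 0.060 log2 (SE). After quantile normalization it was the 1 contrast among all 6 genes with an unadjusted p under 0.05. Its limma p was 0.0472 and its adjusted p 0.258, so it was not called, beside 4.69% of all genes called in that contrast. From 22 h to 46 h the difference was 0.09 ± 0.060 log2 (SE, limma adjusted p = 0.313), with a 95% interval from a fold of 0.975 to one of 1.163. With arrays weighted by their fit, Csnk1e was called by the F test over the times (adjusted p = 0.0162) and from 22 h to 30 h (adjusted p = 0.00549), at a setting that called 54% of all genes by the F test and 32.2% from 22 h to 30 h. That setting gave replicate 3 of 22 h a weight of 6.71 and the other arrays of 22 h 0.821 and 0.383, so that its level for 22 h is mostly that of 1 array. It also called Csnk1e at 26 h and 40 h against 22 h (adjusted p = 0.0267 and 0.0412), beside 19.9% and 43.9% of all genes. With the main component of the spread within times as a covariate, 30 h against 22 h was called (adjusted p = 0.0370), beside 14.5% of all genes. The F test did not call Csnk1e there (adjusted p = 0.110). That component comes from the spread within these same arrays, so it left the difference at 0.13 log2 and lowered only its error. The SE from 22 h to 46 h went from 0.060 to 0.039, so the call is no separate support.

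Csnk1a1, the gene of casein kinase 1 alpha, is also the priming kinase of the beta-catenin destruction complex. Its arrays at 22 h read 11.96, 11.91 and 11.92, those at 26 h 11.95, 11.88 and 11.87 and those at 30 h 11.92, 11.88 and 11.95. At 34 h they read 11.84, 11.92 and 11.90, then 11.90 on all 3 arrays at 40 h and lastly 11.94, 11.94 and 11.93 at 46 h. The tight arrays of 46 h lay above those of 34 h and 40 h, those of 22 h lay above those of 40 h, and the other pairs of times overlapped. The means ran from 46 h, 11.94 ± 0.0065 (SD, n = 3), through 22, 30, 26 and 40 h to 34 h, 11.89 ± 0.040. Neighbours in this order overlapped throughout. The change from 22 h to 46 h was 0.0066 ± 0.043 log2 (SE), with a 95% interval from a fold of 0.943 to one of 1.070.

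Gsk3b encodes glycogen synthase kinase 3 beta, which phosphorylates several clock proteins, among them PER2, CRY2 and REV-ERB alpha, and beta-catenin outside the clock. Its arrays at 22 h read 10.56, 10.65 and 10.54, those at 26 h 10.57, 10.55 and 10.62 and those at 30 h 10.62, 10.57 and 10.57. At 34 h they read 10.58, 10.61 and 10.63, then 10.67, 10.56 and 10.54 at 40 h and lastly 10.57, 10.60 and 10.60 at 46 h. All 15 pairs of times overlapped. The highest mean, 10.61 ± 0.021 (SD, n = 3) at 34 h, and the lowest, 10.58 ± 0.033 at 26 h, were 0.029 log2 apart, and between them came 46, 40, 30 and 22 h. The change from 22 h to 46 h was 0.010 ± 0.047 log2 (SE), with a 95% interval from a fold of 0.940 to one of 1.079.

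Btrc encodes beta-TrCP1. Its arrays at 22 h read 10.80, 10.81 and 10.80, those at 26 h 10.83, 10.88 and 10.84 and those at 30 h 10.83, 10.88 and 10.92. At 34 h they read 10.89, 10.84 and 10.81, then 10.81, 10.91 and 10.79 at 40 h and lastly 10.89, 10.86 and 10.80 at 46 h. The 3 arrays of 22 h lay close together and below all those of 26, 30 and 34 h, and every other pair of times overlapped. The means ran from 30 h, 10.88 ± 0.045 (SD, n = 3), through 46, 26, 34 and 40 h to 22 h, 10.80 ± 0.0073, and all neighbours overlapped. The difference from 22 h to 46 h was 0.049 ± 0.047 log2 (SE, limma adjusted p = 0.510), with a 95% interval from a fold of 0.965 to one of 1.108.

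Fbxw11 encodes beta-TrCP2, the close paralog that binds the same phosphorylated motif. Its arrays at 22 h read 10.62, 10.55 and 10.61, those at 26 h 10.66, 10.58 and 10.53 and those at 30 h 10.58, 10.63 and 10.67. At 34 h they read 10.62, 10.59 and 10.62, then 10.58, 10.58 and 10.55 at 40 h and lastly 10.57, 10.55 and 10.61 at 46 h. Only 34 h and 40 h did not overlap. The means ran from 30 h, 10.62 ± 0.047 (SD, n = 3), through 34, 22, 26 and 46 h to 40 h, 10.57 ± 0.015, with overlap between all neighbours. The change from 22 h to 46 h was -0.020 ± 0.046 log2 (SE), with a 95% interval from a fold of 0.923 to one of 1.054.

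Across the 6 genes, 12 of the 90 combinations of a gene and a pair of times had arrays that did not overlap, or 13.3%, beside 22.9% over all genes. The F test of limma over the 6 times called 0 of the 6 genes at an adjusted p under 0.05, and 19.8% of all genes. Their adjusted p lay between 0.516 (Csnk1e) and 0.994 (Gsk3b), and 0 of the 6 had an unadjusted p under 0.05, beside 6878 of all 19938 genes. For 46 h against 22 h, times 1 cycle apart, 0 of 6 were called, beside 21.2% of all genes called, 11.5% higher and 9.73% lower. An unadjusted p under 0.05 was reached by 0 of the 6 and by 6676 of all 19938 genes. With values as deposited the genes called split into 63.9% higher, with arrays shifted to a common median into 36.1%, and as reported into 54.2%. Of the 6 genes, 2 were on the lower side at 46 h as reported, 4 with values as deposited and 6 with a common median, where the changes ran from -0.13 (Fbxw11) to -0.011 (Csnk1e). No change from 22 h to 46 h was called at any of the 3 scalings, with a lowest adjusted p of 0.0786 (Fbxw11, common median).

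A cosine with a period of 24 h, the cycle that the series set out to describe, was called by limma in 0 of the 6 genes and in 0.828% of all genes. The fitted amplitude, the log2 distance from the mean to the peak, was 0.0091 ± 0.019 (SE, n = 18 arrays) for Gsk3b and 0.029 ± 0.027 for Csnk1e, with the other 4 between them. The median amplitude over all genes was 0.064. The adjusted p ran from 0.639 to 0.930 and 0 of the 6 had an unadjusted p under 0.05, beside 4248 of all 19938 genes. When 34 h was set against the average of 22 h and 46 h, 0 of 6 were called by limma, beside 0.135% of all genes called. An unadjusted p under 0.05 was reached there by 0 of the 6 and by 2398 of all 19938 genes. In the 15 contrasts between pairs of times, which share groups with each other, limma called 0 of the 6, and 1 gene in 1 contrast (Csnk1e, above) had an unadjusted p under 0.05. With arrays shifted to a common median 1 was called, Csnk1a1 at 40 h against 22 h (-0.12 log2, adjusted p = 0.0488), beside 29.1% of all genes. At that scaling the unadjusted limma p was under 0.05 in 6 of the 15 contrasts for Csnk1d, 5 for Fbxw11, 2 for Gsk3b and 1 for Csnk1a1. It was so in 0 for Csnk1e and Btrc, and with values as deposited in 0 for each of the 6. After quantile normalization, the contrasts with 22 h called 2.19% of all genes for 26 h, 4.69% for 30 h, 9.44% for 34 h and 21.4% for 40 h. Contrasts with 26 h called 0% for 30 h, 0.0702% for 34 h, 12% for 40 h and 13.2% for 46 h. Contrasts with 30 h called 0.0903% for 34 h, 5.51% for 40 h and 9.15% for 46 h. Against 34 h, 40 h gave 0.823% and 46 h 3.57%, and 46 h against 40 h gave 0.0351%.

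The 95% intervals hold for the quantile-normalized values. Over the 15 contrasts, the 95% bound furthest from no change was a fold of 1.094 for Gsk3b, 1.101 for Csnk1d, 1.102 for Csnk1a1, 1.112 for Fbxw11, 1.125 for Btrc and 1.194 for Csnk1e. With arrays shifted to a common median these bounds were 1.140 for Gsk3b, 1.143 for Csnk1d, 1.159 for Csnk1a1, 1.186 for Fbxw11, 1.157 for Btrc and 1.166 for Csnk1e. From 22 h to 46 h, the changes of Csnk1d, Csnk1a1, Gsk3b, Btrc and Fbxw11 at that scaling lay beyond the lower end of their intervals given above. The 95% intervals at that scaling excluded no change for Csnk1d (a fold of 0.882 to 0.991), Gsk3b (0.880 to 0.997) and Fbxw11 (0.8485 to 0.987). Those of Csnk1e, Csnk1a1 and Btrc included it. With quantile normalization, Gsk3b spanned less than all but 0.06% of genes between its highest and lowest time, Csnk1a1 less than all but 0.67%, Csnk1d less than all but 0.68%, Fbxw11 less than all but 1.29% and Btrc less than all but 3.03%. Csnk1e stood at 20.7% on the same ranking, and the median span over all genes was 0.19 log2. Of the related kinase genes outside the 6, Csnk1g3 stood at 0.93%, Gsk3a at 3.38%, Csnk1g1 at 12.2% and Csnk1g2 at 24.3%. The spread between arrays of 1 time was also small for most of the 6 genes, with a residual SD of 0.028 for Csnk1d, 0.031 for Csnk1a1, 0.039 for Fbxw11, 0.042 for Btrc, 0.043 for Gsk3b and 0.069 for Csnk1e, beside a median of 0.09 over all genes. The ranking and this median run over genes of all levels. The median level was 10.88 for the 6 genes and 8.07 over all genes, and its part in these values was not tested.

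**Figure D2:**
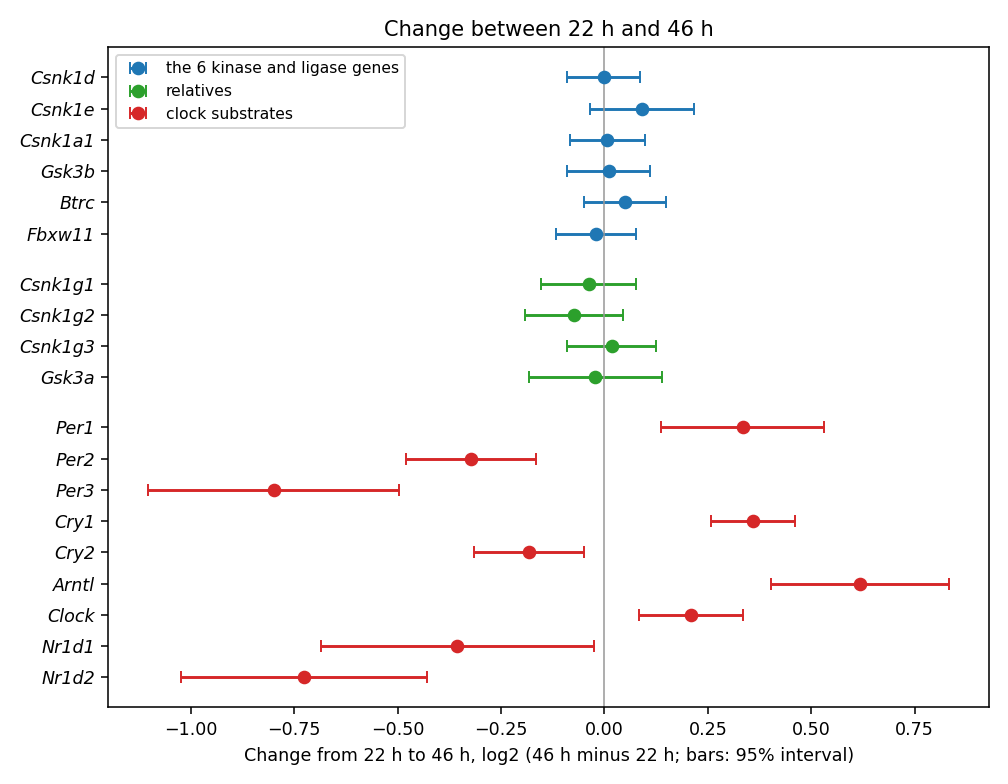
Change from 22 h to 46 h (horizontal axis, log2, 46 h minus 22 h) with its 95% interval from limma for the 6 genes, their 4 relatives and the 9 measured genes of clock proteins they act on. After quantile normalization, the intervals of the 6 genes and 4 relatives include 0, and those of the 9 genes of clock proteins lie to either side of it.

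Paralogs were compared within each array, where a constant shift of the array drops out. Quantile normalization can still shift genes of different levels differently. The difference of Csnk1e minus Csnk1d was -0.48, -0.42 and -0.50 log2 on the arrays of 22 h and -0.41, -0.30 and -0.41 on those of 46 h. The change of 0.09 log2 had an exact two-sided permutation p of 0.1, the smallest that 3 arrays against 3 can give (0.3 adjusted over the 3 pairs compared). The arrays did not overlap, which is the same fact as this p. Their nearest values were -0.4197 at 22 h and -0.4134 at 46 h. Fbxw11 minus Btrc was -0.18, -0.26 and -0.19 at 22 h and -0.32, -0.32 and -0.19 at 46 h, a change of -0.07 (exact permutation p = 0.2, adjusted 0.3). Gsk3b minus its paralog Gsk3a was 0.0585, 0.013 and 0.043 at 22 h and 0.14, -0.036 and 0.11 at 46 h, a change of 0.03 (exact permutation p = 0.5, adjusted 0.5). This test of 3 arrays against 3 could not go below 0.1.

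Of the 4 relatives of the kinases outside the 6, limma called 0 from 22 h to 46 h, beside 21.2% of all genes. An unadjusted p under 0.05 was reached by 0 of the 4 and by 6676 of all 19938 genes. With arrays shifted to a common median 1 was called, beside 1848 of all genes called higher and 3275 lower. The casein kinase 1 gamma genes differed by -0.04 ± 0.055 (SE) for Csnk1g1, -0.07 ± 0.056 for Csnk1g2 and 0.02 ± 0.051 for Csnk1g3. Gsk3a, which encodes GSK3 alpha, differed by -0.02 ± 0.076 log2.

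The genes of the proteins acted on were measured on the same arrays. Of 9 genes, the F test of limma called 8, 46 h against 22 h called 8 (4 higher and 4 lower), and the cosine called 6, beside 19.8%, 21.2% and 0.828% of all genes. The count for 46 h against 22 h was 5 without replicate 1 of 22 h, and 5 without replicate 3 of 46 h. Per3, a period gene, read 8.53, 8.65 and 8.66 on the arrays of 22 h, 7.19, 7.43 and 7.03 on those of 40 h and 7.98, 7.77 and 7.70 on those of 46 h. These groups did not overlap, and Per3 fell by 0.80 log2 from 22 h to 46 h (SE 0.14, limma adjusted p = 6.43e-04). Per2, whose protein is the main studied substrate of casein kinase 1, fell by 0.32, the repressor gene Cry2 by 0.18 and Nr1d2, which encodes REV-ERB beta, by 0.73. Per1 rose by 0.33, Cry1 by 0.36, Clock by 0.21 and Arntl by 0.62. Nr1d1, the gene of REV-ERB alpha, differed by -0.36 (limma adjusted p = 0.119) and was called by the cosine with an amplitude of 0.64 ± 0.083 (SE). Cry2 had the smallest cosine p of all 19938 genes, with an amplitude of 0.31 ± 0.034.

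Other enzymes acting on clock proteins, and the partners of the 6 genes, were counted in 6 lists. Together these held 50 measured genes, of which limma called 3 by the F test, beside 19.8% of all genes. From 22 h to 46 h it called 7, 2 higher and 5 lower, beside 21.2% of all genes. The count of 7 was 2 without replicate 1 of 22 h and 4 without replicate 3 of 22 h or replicate 2 of 46 h, and the F test called 5 without replicate 2 of 40 h. The cosine called 0 of the 50, beside 0.828% of all genes, with a smallest adjusted p of 0.109. An unadjusted p under 0.05 was reached by 8 of the 50, beside 4248 of all 19938 genes. With arrays shifted to a common median, the cosine called 2.

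The counts for single lists are for 46 h against 22 h, where limma called 21.2% of all genes. Among 11 other kinases, 3 were called. Cdk5, a kinase of neurons that also phosphorylates clock proteins, rose by 0.19 ± 0.046 log2 (SE). Csnk2a2, a catalytic subunit of casein kinase 2, fell by 0.17 ± 0.049, and Prkaa1, a catalytic subunit of the energy sensor AMPK that phosphorylates CRY, fell by 0.17 ± 0.050. The count was 1 without replicate 1 or 3 of 22 h or without replicate 2 of 46 h. Of 6 phosphatases, Ppp1ca, a catalytic subunit of protein phosphatase 1, fell by 0.24 ± 0.056 and the other 5 were not called.

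The lists that follow also stand beside 21.2% of all genes called from 22 h to 46 h. Of 8 genes of the SCF core and its activators, Nedd8, the ubiquitin-like protein that activates cullins, fell by 0.23 ± 0.078 log2 (SE, limma adjusted p = 0.0438). That call was lost without any 1 of 9 arrays: any array of 22 h or 46 h, replicate 3 of 26 h, replicate 2 of 30 h or replicate 3 of 34 h. Cul1, the cullin of the complex, differed by 0.12 ± 0.075, Rbx1, its RING protein, by 0.011 ± 0.087 and Skp1, its adaptor, by 0.055 ± 0.060, none of them called. Of 8 other F-box genes with WD repeats, Fbxw7, the F-box protein for cyclin E and MYC that is also a GSK3-dependent ligase, fell by 0.26 ± 0.065. No gene of this list was called without replicate 1 of 22 h, and 2 were without replicate 2 of 22 h. Of 14 other ligases and deubiquitinases, 2 were called: Fbxw7 again, and Usp2, a deubiquitinase of clock proteins, which rose by 0.23 ± 0.064. That list had 0 calls without replicate 1 of 22 h and 1 without replicate 3 of 46 h. Of 8 genes of the beta-catenin destruction complex and its regulators, Dvl3, a dishevelled protein that relays Wnt signals, rose by 0.40 ± 0.094.

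**Figure D3:**
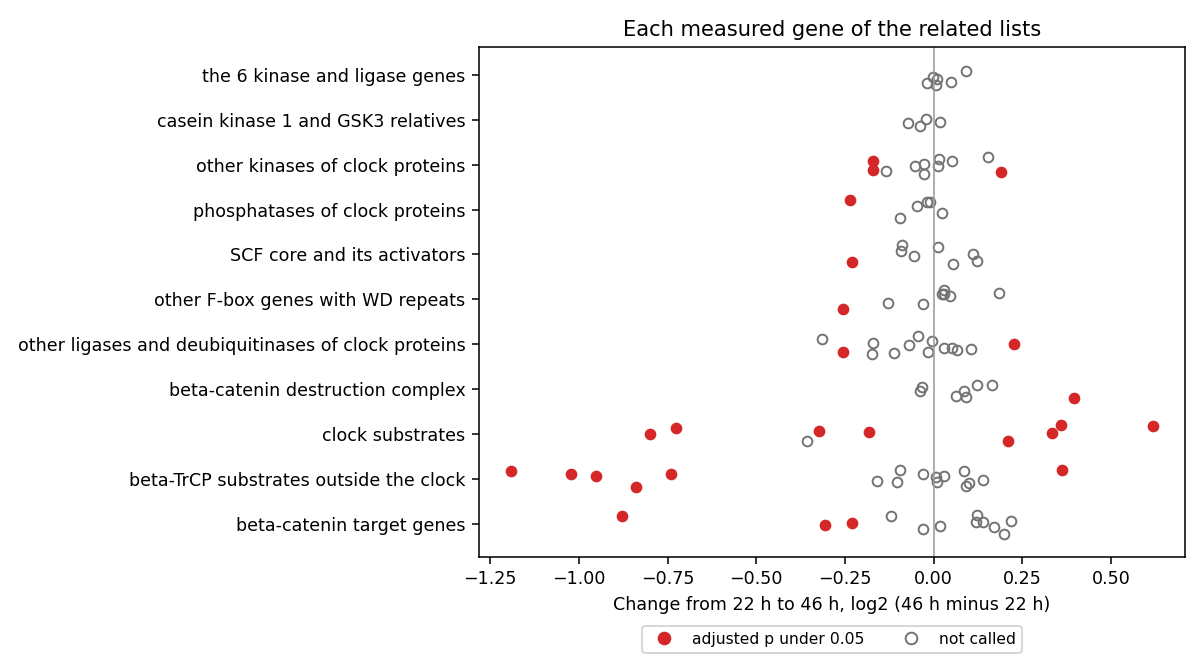
Change from 22 h to 46 h (horizontal axis, log2) of each measured gene, 1 row for the 6 genes and 1 for each related list; filled points are called by limma at an adjusted p under 0.05, and the height within a row is for display only. The 6 genes lie between -0.020 and 0.09, and the largest falls are among the beta-TrCP substrates outside the clock, down to -1.19.

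Outside the clock, beta-TrCP marks other phosphorylated proteins, and 6 of 17 measured genes for such substrates were called from 22 h to 46 h by limma, beside 21.2% of all genes. Fbxo5, which encodes the mitotic inhibitor EMI1, fell by 1.19 ± 0.088 log2 (SE, adjusted p = 3.14e-08). Bora, an activator of the kinase Aurora A, fell by 1.02 ± 0.096, and Clspn, the checkpoint adaptor claspin, by 0.84 ± 0.095. Plk4 and Wee1, both kinases of the cell cycle, fell by 0.95 and 0.74, and Deptor, an inhibitor of mTOR, rose by 0.36. The 5 that fell are genes of the cell cycle, and the 11 measured genes of G2/M and mitosis, which moved in the same direction, were all lower as given above; their part in these calls was not tested. Of 12 genes that beta-catenin is known to induce, 3 were called, beside 21.2% of all genes, and these 3 were lower: Myc by -0.88 ± 0.091, Lef1 by -0.30 ± 0.053 and Ccnd1 by -0.23 ± 0.059. Of the 12, 7 were on the higher side and 5 on the lower, with a median change of 0.07. With values as deposited, 7 of the 12 were called, 4 higher and 3 lower. Axin2, a widely used readout of this pathway, differed by 0.12 ± 0.056 from 22 h to 46 h after quantile normalization (limma adjusted p = 0.131). Over the 6 times, the F test of limma called 6 of the 12, beside 19.8% of all genes. These were Myc, Lef1, Ccnd1, Axin2 (adjusted p = 0.0294), Nkd1 (0.0277) and Lgr5 (0.00978). The cosine called 1, Lgr5 (limma adjusted p = 0.0199), beside 0.828% of all genes.

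The small differences between arrays of the same time were partly shared by the genes. The first component of the spread within times held 33.8% of the variance over all genes. Its correlation with the deviations of Csnk1e from their time means was -0.854, with Csnk1d -0.806 and with Gsk3b -0.699, while Btrc stood at 0.538, Fbxw11 at 0.481 and Csnk1a1 at 0.042. All of these run over the same 18 arrays, and each gene is also part of the component. Over the 18 arrays Csnk1d and Csnk1e had a Pearson r of 0.685, or 0.688 within times, and 0.198 with values as deposited, so that the value depends on the scaling. The other pairs among the 6 had an r between -0.335 and 0.456.

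**Figure D4:**
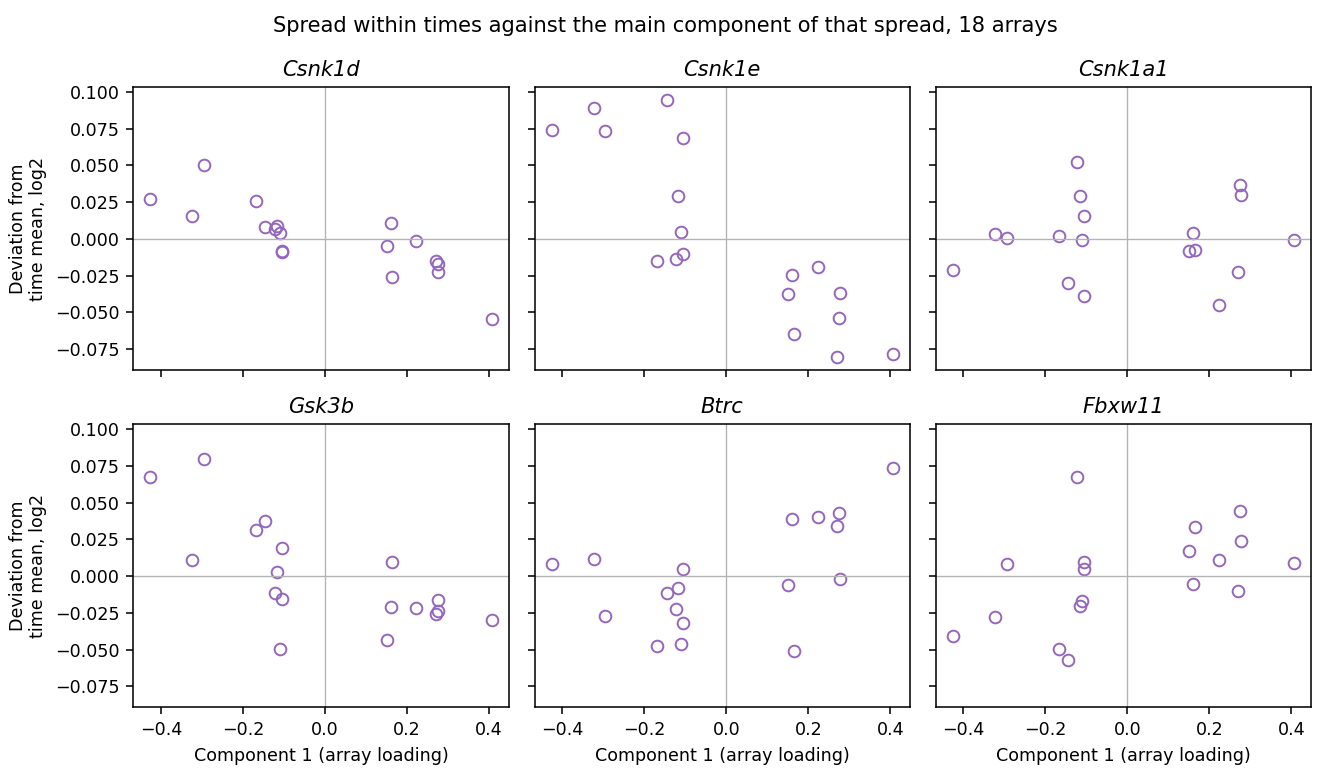
Deviation of each array from the mean of its time (vertical axis, log2) for each of the 6 genes against the array's loading on the first component of the spread within times (horizontal axis), for 18 arrays. Csnk1d, Csnk1e and Gsk3b run downwards from left to right, Btrc and Fbxw11 upwards, and Csnk1a1 shows no slope (correlations from -0.854 to 0.538).

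The genes whose levels ran most like each of the 6 were found by Pearson r over the 18 arrays, among 9649 genes above the median level. For Csnk1d they were Aup1 (0.904), Tmbim1 (0.892) and Zfp414 (0.888), and for Csnk1e Adamtsl5 (0.915), Rnf123 (0.913) and Midn (0.911). For these 6 genes, the correlation with the first component of the spread within times lay between -0.934 and -0.774. Gsk3b ran most like Ssbp3 (0.832), Ambra1 (0.832) and Gli3 (0.829), which stood at -0.790 to -0.781 on that component. Csnk1a1 ran most like Elavl1 (0.777), Yy1 (0.722) and Dcun1d1 (0.714), Btrc most like Rcbtb1 (0.868), Washc2 (0.806) and Npc2 (0.804), and Fbxw11 most like Slc35a5 (0.793), Prorp (0.740) and Phtf1 (0.715). These are descriptions of 18 arrays that share the scaling and the within-time component.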

How the data were processed

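RNA was labelled with whole-transcript kits from Affymetrix, per the labels' protocols. The values the authors deposited are linear intensities, with 1 value for each probe set. The submitters' processing notes name Affymetrix Expression Console 1.1 and PLIER 2.0, and how they were set is not given in the sources used here. Array medians ran from 195.9 to 210.2. Precision is limited by how many arrays there were.

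Of 35556 probe sets, 21789 had 1 gene symbol in the platform annotation and were used, 1621 had several and 12146 were unnamed here; 21698 of those used matched RefSeq (GRCm38.p6). Of several probe sets for 1 gene, the brightest on average was used. Deposited intensities were taken as log2(value + 16) and quantile normalized, because array quartiles differed by up to 0.154 log2. R 4.3.3 with limma 3.58.1 fitted the 6 time means to all 18 arrays (lmFit, eBayes), and a cosine of 24 h separately. P-values were adjusted by Benjamini-Hochberg over 19938 genes, and called means an adjusted p under 0.05. The code was tested on simulated data. Figures used matplotlib 3.10.9.

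The 6 genes and all lists were chosen with earlier results of these data known. Named were the 6 genes, all measured relatives and clock protein genes, up to 3 called genes of each list with the smallest p, and the 3 most alike genes (by r) above the median level for each of the 6, leaving out gene models and olfactory and vomeronasal receptors. Cul1, Rbx1, Skp1, Axin2, Nkd1, Lgr5, Plk4, Wee1, Deptor, Sox2, Sox10 and Thy1 were named after their values were seen. Listed genes without a probe set of 1 symbol are not reported here. Alternatives covered the normalization, the added constant, every probe set on its own, only genes above the median level, array weights, the replicate block, a variance trend, other periods and each array left out.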

Additional observations from a re-analysis of the deposited data

How the results depend on the processing

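The 6 genes kept 0 calls from 22 h to 46 h, by the cosine and at 34 h under all 10 other settings and with each of 18 arrays left out, and 0 by the F test except with array weights (1, Csnk1e). Between other pairs of times, 5 calls came in 3 of these 28 settings, 4 of Csnk1e and 1 of Csnk1a1. The contrasts and settings of these calls called between 14.5% and 43.9% of all genes. For the change from 22 h to 46 h and the cosine amplitude, the lowest adjusted p of the 6 genes at any setting was 0.0587. With a common median Csnk1d moved to -0.0972 and Fbxw11 to -0.1279. Changes with the opposite sign came with a common median for Csnk1e (-0.0112), Csnk1a1 (-0.0897), Gsk3b (-0.0944) and Btrc (-0.0565), and with values as deposited for Csnk1a1 (-0.0234) and Gsk3b (-0.0282). With 1 array left out the change ran from -0.0125 to 0.0122 for Csnk1d, -0.0040 to 0.0214 for Csnk1a1 and -0.0115 to 0.0440 for Gsk3b, and Gsk3b minus Gsk3a from -0.0019 to 0.0853. From 22 h to 46 h, a common median called 1848 of all 19938 genes higher and 3275 lower. Values as deposited called 3863 higher and 2180 lower. Array weights called 54% of all genes by the F test. The covariate below called 6253 of all 19938 genes from 22 h to 46 h and 7696 by the F test. The share of all genes from 22 h to 46 h with weights is not reported here. Beside these, list counts called from 22 h to 46 h moved as follows. With a common median: relatives 1, phosphatases 2, SCF core 2, F-box genes with WD repeats 2, other ligases 4, destruction complex 2, the 6 lists together 13 (F test 14, cosine 2). With array weights: other kinases 5, phosphatases 2, SCF core 4, F-box genes 3, other ligases 5, destruction complex 3, beta-TrCP substrates 10, beta-catenin targets 7, the 6 lists 18 (F test 26, cosine 2). With the first component of the spread within these same arrays as a covariate, an alternative chosen after seeing the data: other kinases 5, SCF core 2, F-box genes 3, other ligases 6, destruction complex 2, the 6 lists 16 (F test 17, cosine 1). With values as deposited: F-box genes 2, destruction complex 2, beta-catenin targets 7. F-box genes were 2 with a constant of 64 and 2 among genes above the median level. The 6 lists had 5 F test calls among genes above the median level and 6 with a variance trend. A period of 22 h left 2 clock protein genes called by the cosine. With 1 array left out, other kinases ran from 1 to 3, SCF core 0 to 1, F-box genes 0 to 2, other ligases 0 to 3, clock protein genes 5 to 8, and the 6 lists 2 to 8 (F test 2 to 5). The cause of these moves was not tested. The replicate number as a block changed 1 count past 1.5 times, SCF core to 0. No pairing by number was seen in the deviations from time means. Same-numbered arrays correlated at medians of -0.114, -0.110 and -0.0885, and 6 of 18 arrays correlated best with their own number. With 3 arrays a time, these correlations cannot exclude a weaker pairing.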
